A study of Homo sapiens with 9 samples.

Results

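The genes described here encode the machinery of oxidative phosphorylation, and they were followed in the embryonic and the extra-embryonic cells of human extra-embryoids (hEEs), aggregates of human embryonic stem cells that sort into an inner epiblast-like and an outer hypoblast-like tissue. Members were chosen by symbol. The nuclear members were all genes whose symbols start with NDUFA, NDUFB, NDUFC, NDUFS, NDUFV, UQCR, ATP5 or COX4 to COX8, plus SDHA to SDHD, and the 13 protein-coding genes of the mitochondrial genome (the MT- genes) were added. The rule found 109 of the 36601 genes in the count matrices, 96 nuclear and 13 mitochondrial. No measured value is part of the rule, but it was chosen with earlier results of these data known.

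Both hEE libraries came from untreated, wild-type ESI017 cells, a human embryonic stem cell line, and each was a single droplet library of pooled aggregates. They were collected at D4 and at D6 of culture under 5% oxygen, from wells pooled across independent cultures of the same line. Each day therefore held 1 sample, so values are given without a test, and a difference between days cannot be told apart from a difference between libraries. Levels are given in CPM, the UMIs of a gene per 1000000 UMIs of a gate, and because 1 UMI stands for 1 molecule read at its 3′ end, they do not grow with gene length. All 95% intervals, in square brackets, cover counting error only.

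Cells were assigned to 2 gates by their unique molecular identifiers (UMIs, 1 per captured RNA molecule). A cell of the embryonic gate had 5 or more POU5F1 UMIs, 1 or more SOX2 UMIs and at most 2 FN1 UMIs. Cells of the hypoblast gate had 3 or more FN1 UMIs, no SOX2 UMI and at most 5 POU5F1 UMIs. At D4 the embryonic gate held 3716 cells with a median of 15157.5 UMIs and the hypoblast gate 4061 cells with 11012 UMIs, and at D6 the gates held 5054 cells (14225.5 UMIs) and 3567 cells (10902 UMIs). Outside the gate rule, most markers of the epiblast and all measured markers of the hypoblast matched the names of the gates. UTF1, an epiblast marker, stood at 67.7 CPM in the embryonic and 1.13 in the hypoblast gate at D4, and APOA1, an apolipoprotein gene of the hypoblast, at 20.8 and 1621. TDGF1 went against the rest of its epiblast list, with 186 and 228 CPM at D4. The 6 trophoblast markers summed to at most 0.105 CPM in any gate and day. The libraries held 10943 and 11483 cells, of which 9151 and 10097 passed the study's filters on the UMIs of a cell and an MT- share of at most 10%. The D4 and D6 libraries shared 40 cell barcodes, 27 of them among the cells kept.

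Respiration in the inner mitochondrial membrane runs through 4 electron-transferring complexes and the ATP synthase. Complex I takes electrons from NADH, complex II from succinate, complex III passes them from ubiquinol to cytochrome c and complex IV from cytochrome c to oxygen, and complex V uses the proton gradient so built to make ATP. Complexes I, III, IV and V each combine nuclear-encoded subunits, imported after translation in the cytosol, with subunits translated inside the organelle from MT- messenger RNAs, whereas complex II is wholly nuclear. The MT- genes are transcribed from both strands of the circular genome as long precursors that are cut at interposed transfer RNAs, so their RNA levels depend on transcription, processing and decay inside the mitochondrion. Pluripotent cells are known for relying on glycolysis while keeping respiration in place.

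Summed over the 96 nuclear genes, the level was nearly the same in every gate and day, while the sum of the 13 MT- genes was lower at D6 than at D4 in both gates. Nuclear members took 2.52% of all UMIs in the embryonic gate and 2.55% in the hypoblast gate at D4, and 2.49% and 2.57% at D6. MT- genes took 3.95% and 3.89% at D4, against 2.58% and 2.37% at D6. On the log2 scale the MT- sum changed from D4 to D6 by -0.62 [-0.62, -0.61] in the embryonic and by -0.71 [-0.71, -0.71] in the hypoblast gate, and the nuclear sum by -0.018 [-0.021, -0.015] and 0.01 [0.0064, 0.014]. The ratio of MT- to nuclear UMIs, 1.57 and 1.52 at D4, was 1.03 and 0.923 at D6.

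**Figure D1:**
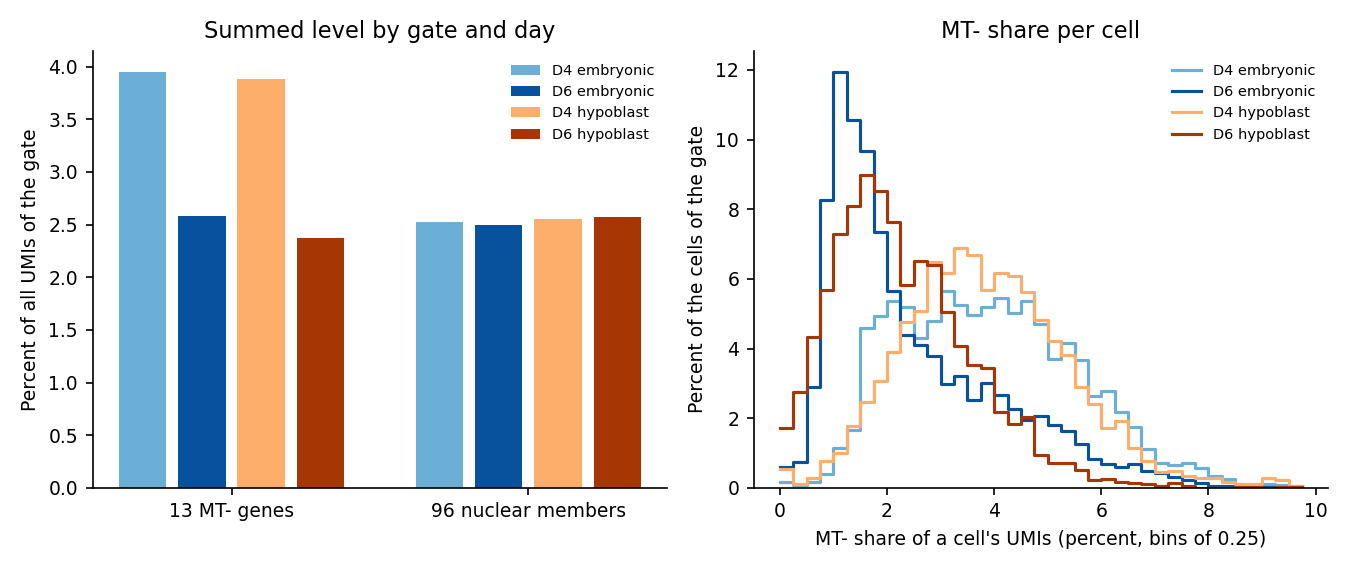
Summed level of the MT- and nuclear members as a percent of all UMIs of each gate (left, bars, 1 library a day), and the distribution of the MT- share over single cells in bins of 0.25 percentage points (right). The D6 bars of the MT- genes, 2.58% and 2.37%, lie below the D4 bars, 3.95% and 3.89%, and the nuclear bars lie between 2.49% and 2.57%.

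The lower MT- level at D6 was seen across the cells of each gate. The median MT- share of a cell was 3.82% in the embryonic and 3.75% in the hypoblast gate at D4, and 1.93% and 2.10% at D6. Cells with an MT- share of 1% to 2% made up 12.3% of the embryonic gate at D4 and 39.5% at D6, and 8.32% and 32.9% of the hypoblast gate. Within cells of 10000 to 14000 UMIs the share went from 3.86% to 2.25% in the embryonic and from 3.88% to 2.38% in the hypoblast gate. The log2 change at this matched depth, -0.78 and -0.71, was thus no smaller in the embryonic gate than over all its cells. Cells above an MT- share of 10% had been removed, which took 12 and 24 gated cells at D4 and 2 and 7 at D6.

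Across all members, those past a log2 change of 0.32, the fold used as a threshold throughout, were almost all mitochondrial. Of 87 nuclear members with a mean of 10 CPM or more, 1 was higher and 0 were lower at D6 in the embryonic gate, and of 88 in the hypoblast gate 1 was higher and 0 were lower. Among all genes measured, 6.85% were higher and 4.04% lower in the embryonic gate and 12.6% higher and 10.6% lower in the hypoblast gate, a larger share than of the nuclear members in each direction. Of the 13 MT- genes, 9 were lower past the fold in the embryonic gate, and the same 9 genes were lower in the hypoblast gate. The nuclear exceptions were ATP5F1E, the epsilon subunit of the ATP synthase rotor stalk, with 357 CPM at D4 and 463 at D6 in the embryonic gate, and NDUFAF2, an assembly factor of complex I, with 22.1 and 29.2 in the hypoblast gate.

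The MT- genes did not differ between days by one common factor, and their order differed between gates. MT-CO1, MT-CO2 and MT-CO3 encode the catalytic core of complex IV, and they were the 3 most abundant MT- genes in both gates on both days. MT-CO1 stood at 9230.3 and 8299.7 CPM in the embryonic and hypoblast gates at D4 and at 6888 and 5793 at D6. MT-CO2 went from 6829.7 to 3436 in the embryonic gate, a log2 change of -0.99, and from 7148 to 5136 in the hypoblast gate, a change of -0.48 [-0.48, -0.47]. MT-CO3 had the reverse order, from 7668 to 4992 (-0.62 [-0.63, -0.61]) in the embryonic and from 7577 to 2890.1 (-1.39 [-1.40, -1.38]) in the hypoblast gate. MT-CO2 was thus the further apart between days in the embryonic gate and MT-CO3 in the hypoblast gate. The make-up of MT- RNA also differed within a day between cells of low and high MT- share. In D4 embryonic cells MT-CO1 made up 30.1% of MT- UMIs at MT- shares of 1% to 2% and 20.9% at 6% to 10%. For MT-CO2 the values were 12.0% and 18.3%. How far the gene differences between days go with the MT- share was not tested.

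MT-ATP6, a proton channel subunit of complex V, is the gene between MT-CO2 and MT-CO3 on the mitochondrial genome, and it overlaps MT-ATP8 on 1 shared messenger. Its level went from 4913 to 2683 CPM in the embryonic and from 5179 to 2165 in the hypoblast gate, log2 changes of -0.87 and -1.26. MT-ATP8 changed by -0.67 [-0.78, -0.55] and -0.62 [-0.77, -0.48], but stood at no more than 24.7 CPM, and reads in its overlap with MT-ATP6 cannot be assigned to 1 gene. The complex I genes were split. MT-ND3 had log2 changes of -0.86 and -1.04 and MT-ND1 and MT-ND4 lay between -0.54 and -0.42, whereas MT-ND2 (-0.20 and -0.26), MT-ND4L (-0.24 and -0.12) and MT-ND5 (-0.22 and -0.026) stayed within the fold. MT-CYB, the cytochrome b of complex III, changed by -0.57 and -0.48.

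MT-ND6, the 1 protein-coding gene on the other, light strand of the mitochondrial genome, was the 1 MT- gene that was not lower at D6 than at D4 in the embryonic gate. It stood at 227 [223, 231] CPM in the embryonic gate at D4 and at 236 [232, 239] at D6, and at 143 [139, 146] and 132 [128, 135] in the hypoblast gate. The log2 change between days was 0.054 [0.021, 0.087] and -0.11 [-0.16, -0.06], and in embryonic cells of 10000 to 14000 UMIs it was -0.01. Between gates MT-ND6 was the MT- gene furthest apart at both days, with log2 ratios of 0.67 [0.63, 0.72] at D4 and 0.84 [0.79, 0.88] at D6 in favour of the embryonic gate, although in cells of 10000 to 14000 UMIs at D6 MT-CO2 was further apart (-0.91 beside 0.83 for MT-ND6). The gap was not the same at every MT- share. At an MT- share of 1% to 2%, MT-ND6 made up 1.57% (embryonic) and 0.871% (hypoblast) of MT- UMIs at D4. At D6 these values were 1.68% and 0.781%. In cells with an MT- share of 6% to 10% they were 0.350% and 0.352% at D4, and 0.373% and 0.417% at D6. How completely capture at the 3′ end reads the RNA of MT-ND6 was not tested. On the RefSeq mitochondrial sequence of GRCh38.p14 it lies at positions 14149 to 14673, between MT-ND5 (12337 to 14148) and MT-CYB (14747 to 15887).

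**Figure D2:**
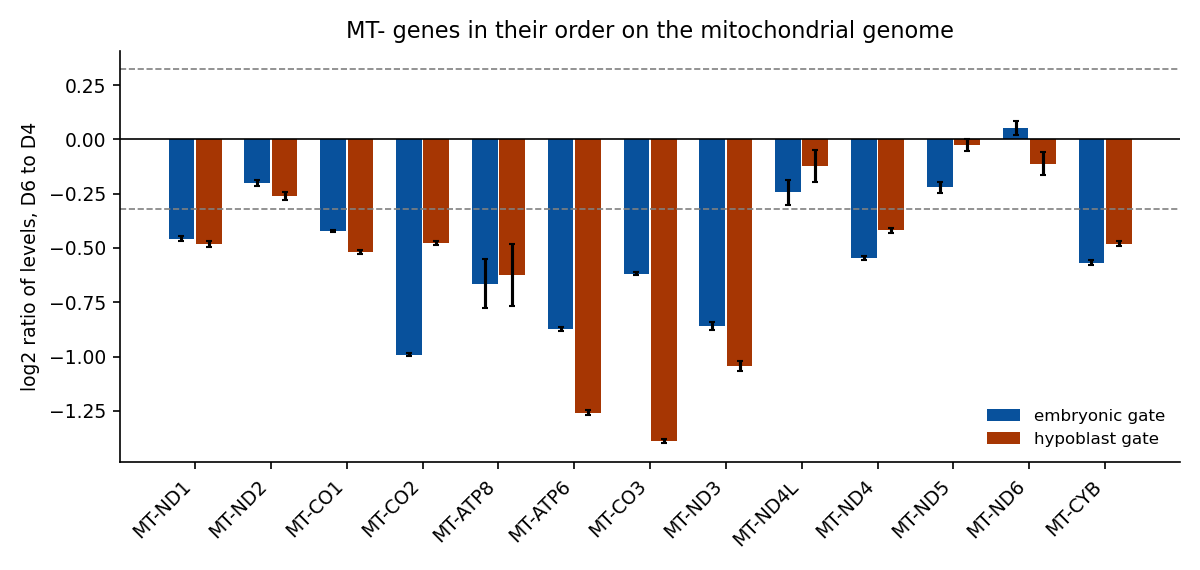
Log2 ratio of the level at D6 to that at D4 for each MT- gene, in the order of the mitochondrial genome, in the embryonic (blue) and hypoblast (brown) gates, with 95% counting intervals as error bars and log2 ratios of 0.32 and -0.32 as dashed lines. MT-CO3 shows the longest hypoblast bar (-1.39), MT-CO2 the longest embryonic bar (-0.99), and the MT-ND6 bars lie at 0.054 and -0.11.

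At D4 MT-CO2 and MT-CO3 made up nearly the same shares of MT- RNA in the 2 gates, and at D6 they did not. MT-CO2 made up 17.3% of all MT- UMIs in the embryonic and 18.4% in the hypoblast gate at D4, and 13.3% and 21.6% at D6. MT-CO3 made up 19.4% and 19.5% at D4, and 19.4% and 12.2% at D6. Other MT- genes differed in share at D4 already, MT-ND6 with 0.575% and 0.367%, MT-ND1 with 5.54% and 4.37% and MT-CYB with 6.46% and 8.07%. Between gates at D6 the log2 ratio of levels was 0.79 [0.78, 0.80] for MT-CO3 and -0.58 [-0.59, -0.57] for MT-CO2, after 0.017 [0.011, 0.024] and -0.066 [-0.072, -0.059] at D4. Because both genes are read in the same cells and divided by the same total, their ratio does not depend on the total used for scaling.

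The ratio differed between gates in most cells at D6. In cells with at least 30 UMIs of MT-CO2 and MT-CO3 together, MT-CO2 made up a median of 46.7% of that sum in the embryonic gate (3675 cells) and 48.5% in the hypoblast gate (3978 cells) at D4. At D6 the medians were 39.0% (4418 cells) and 65.2% (2951 cells). MT-CO2 exceeded MT-CO3 in 27.9% and 37.4% of these cells at D4, and in 8.10% and 94.0% at D6. The quartiles at D6, 32.1% to 44.4% in the embryonic and 59.1% to 70.3% in the hypoblast gate, did not overlap between gates. Cells with equal MT- shares differed in the same direction at D6, by less where the MT- share was high. Among cells with an MT- share of 4% to 6%, MT-CO2 made up 47.5% [47.3, 47.6] of the summed UMIs in the embryonic and 48.6% [48.4, 48.7] in the hypoblast gate at D4, and 43.2% [43.0, 43.4] and 60.1% [59.8, 60.5] at D6. At D6 the values were 34.9% and 65.4% in cells with an MT- share of 1% to 2%, and 43.6% and 56.9% in cells with 6% to 10% (194 and 38 cells).

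**Figure D3:**
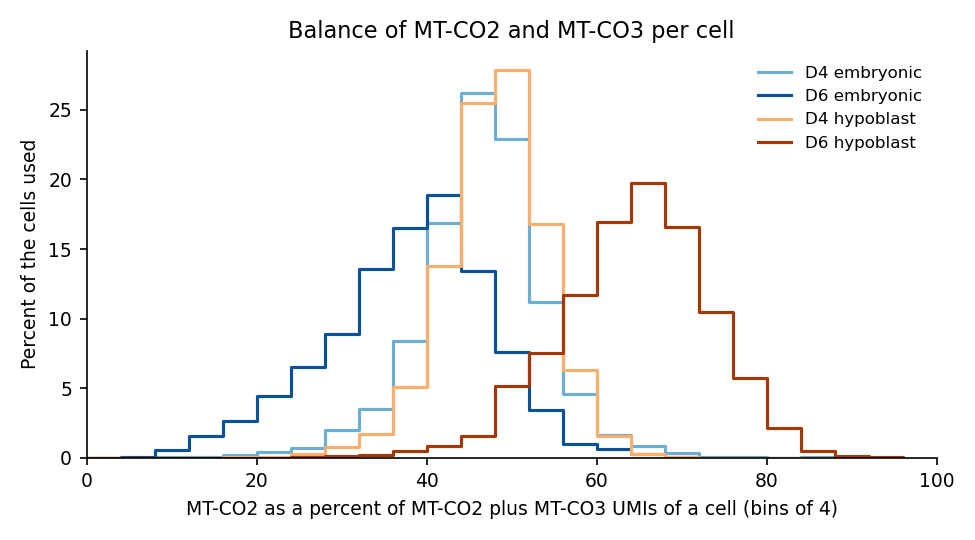
Distribution over cells of MT-CO2 as a percent of MT-CO2 plus MT-CO3 UMIs, in bins of 4 percentage points, for cells with at least 30 such UMIs in each gate and day. The D4 curves lie close together (medians 46.7% and 48.5%), and at D6 the embryonic curve lies lower (39.0%) and the hypoblast curve higher (65.2%).

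Subsets of each gate were compared in the same way, with cut-offs chosen after their values were seen. Hypoblast cells with 100 or more APOA1 UMIs had an MT-CO2 percent of 52.4% [51.6, 53.2] at D4 (64 cells) and 65.4% [65.2, 65.6] at D6 (1931 cells), and cells with fewer than 20 had 47.8% [47.6, 47.9] (2771 cells) and 60.7% [60.1, 61.2] (316 cells). The D6 value was thus above the D4 value in both, and within each day it was higher in cells rich in APOA1. These cells were also deeper, with a median of 16383 against 10495 UMIs at D4 and 12051 against 9107 at D6. The subsets were cut on raw UMIs and were not matched for depth. Cells of the hypoblast gate with 5 or more UMIs of CER1, a secreted antagonist made by the anterior visceral endoderm, had 49.1% (336 cells) at D4 and 61.5% (59 cells) at D6. Their MT- share was 4.25% at D4 and 3.30% at D6, against 3.85% and 2.35% in the rest of the gate. The CER1 cells were deeper as well, with a median of 15411 against 10867 UMIs at D6. Other hypoblast subsets had high MT- shares too. Cells with 3 or more UMIs of NPPB had 4.51% at D4 and 2.81% at D6, and those with 5 or more of LEFTY1 4.10% and 2.84%. In the embryonic gate, cells with 10 or more UMIs of TAGLN, an actin-binding protein gene, had an MT-CO2 percent of 48.1% at D4 (363 cells). At D6 it was 46.2% (96 cells). The MT- share of the TAGLN cells was 4.30% at D4 and 1.74% at D6, against 3.95% and 2.58% over the embryonic gate.

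Embryonic cells with 5 or more UMIs of CYP26A1, a retinoic acid-degrading enzyme, had an MT- share of 3.78% at D4 (124 cells) and 1.72% at D6 (302 cells). A set of cells with 2 or more UMIs of TFAP2A, an amnion-associated transcription factor, and at most 2 of FN1 had 4.24% at D4 (83 cells) and 1.89% at D6 (382 cells). The nuclear share of the CYP26A1 and TFAP2A sets lay between 2.47% and 2.54%. Embryonic cells with 1 or more UMIs of MIXL1 had an MT- share of 4.37% at D4 (92 cells) and 2.97% at D6 (136 cells). Across the cells of a gate the MT- and nuclear shares had Spearman correlations of -0.30 and -0.14 at D4 (3716 and 4061 cells) and -0.25 and -0.04 at D6 (5054 and 3567 cells). Both shares are parts of the same cell total and of the same library, so they are not independent.

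Between the gates the nuclear members were close in sum but not gene by gene. The log2 ratio of the nuclear sum, embryonic to hypoblast, was -0.017 [-0.02, -0.013] at D4 and -0.045 [-0.048, -0.041] at D6. At D4, 17 of 88 measured nuclear members were past the fold and higher in the embryonic gate and 6 were lower, and with the MT- genes 19 and 6 of 101, or 18.8% and 5.94%, against 25.9% and 28.4% of all genes. At D6, 16 of 87 nuclear members were higher and 12 lower, and with the MT- genes 19 and 14 of 100, against 31.5% and 30.2% of all genes. In both directions and on both days a smaller share of the members than of all genes lay past the fold. Their median log2 ratio was 0.07 at D4 and 0.04 at D6, beside 0.00 and 0.03 over all genes measured. On both days 14 nuclear members were higher in the embryonic gate, 5 were higher in the hypoblast gate, and 0 turned from one side to the other past that fold. With UMIs from MT-, RPL and RPS genes left out of the total, the median over all genes moved to 0.07 at D4 and 0.18 at D6, and the members past the fold were 26 higher and 4 lower at D4 and 33 and 6 at D6, but each of the 14 and 5 kept its direction. Of all genes measured, 31.1% were higher and 25.3% lower at D4 with that total and 41.1% and 24.3% at D6, against 25.7% and 3.96% and 32.7% and 5.94% of the members, so the members' share was the smaller here as well.

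**Figure D4:**
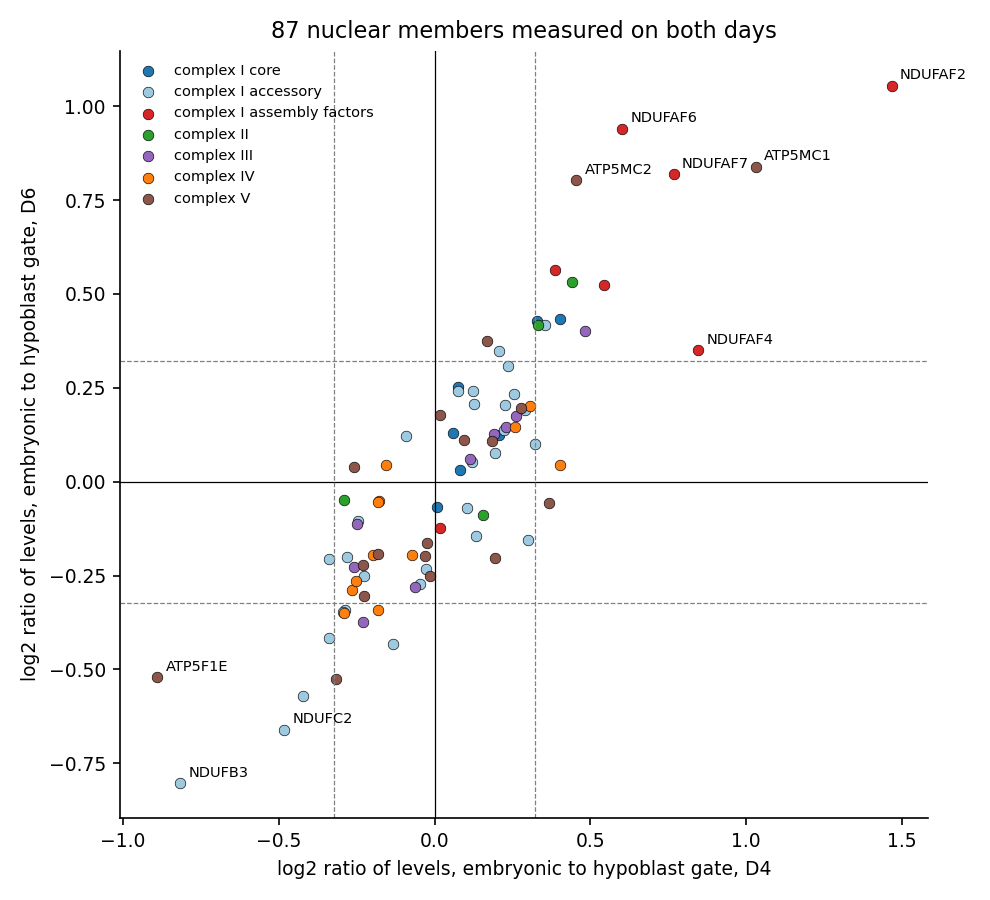
Log2 ratio of levels, embryonic to hypoblast gate, at D4 (horizontal) and D6 (vertical) for the 87 nuclear members measured on both days, coloured by complex, with log2 ratios of 0.32 and -0.32 as dashed lines and names for members past 1.5-fold on either day. Complex I assembly factors lie mostly at the upper right, up to NDUFAF2 at 1.47 and 1.05, and NDUFB3, NDUFC2 and ATP5F1E lie at the lower left.

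Of the groups of nuclear members, the assembly factors of complex I had the highest share past the fold in favour of the embryonic gate. These proteins help to build the complex and are not part of the finished enzyme. Of 8 measured at D4, 6 were past the fold and higher in the embryonic gate and 0 lower, and of 7 at D6, 6 and 0. Among all genes 25.9% were higher at D4 and 31.5% at D6. A list of assembly factors outside the symbol rule lay near that share. It had 29.3% of 41 genes higher and 14.6% lower at D4, and 35.7% of 42 and 11.9% at D6. NDUFAF2, a paralogue of the subunit NDUFA12 that holds a late intermediate, stood at 61.1 and 22.1 CPM at D4, a log2 ratio of 1.47 [1.37, 1.57], and at 60.6 and 29.2 at D6, a ratio of 1.05 [0.96, 1.15]. For NDUFAF4 the log2 ratios were 0.85 and 0.35, for NDUFAF7, an arginine methyltransferase acting on a core subunit, 0.77 and 0.82, and for NDUFAF6 0.60 and 0.94. NDUFAF8 (0.54 and 0.52) and NDUFAF3 (0.39 and 0.56) were higher too, whereas NDUFAF5 had ratios of 0.018 and -0.12 and NDUFAF1, near the level of 10 CPM, 0.02 and -0.19. All 8 summed to 420.0 and 268 CPM at D4 and 395 and 271 at D6, a small part of the nuclear total.

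Most core and accessory subunits of complex I lay within the fold. Among the 7 nuclear core subunits, which carry the electron path, NDUFV2 (0.40 and 0.43) and NDUFV1 (0.33 and 0.43), of the NADH-oxidizing module, were higher in the embryonic gate on both days, and 0 were lower, which makes 28.6% beside 25.9% of all genes at D4 and 31.5% at D6. Of the 30 accessory subunits, 2 were higher and 5 lower at D4, and 2 and 7 at D6, so that the share lower, 16.7% and 23.3%, was below that of all genes (28.4% and 30.2%). The accessory subunits lay on both sides of 0, with 16 above and 14 below at D4 and 14 and 16 at D6. NDUFB3, in the membrane arm, had the widest gap, with 94.0 against 166 CPM at D4 and 103 against 179 at D6, log2 ratios of -0.82 [-0.87, -0.77] and -0.80 [-0.85, -0.76]. NDUFC2 (-0.48 and -0.66), NDUFB2 (-0.42 and -0.57) and NDUFA3 (-0.34 and -0.42) were also higher in the hypoblast gate, and NDUFA5 (0.35 and 0.42) was higher in the embryonic gate. NDUFS5, the most abundant of them, stood at 668 and 612 at D4 and 708 and 613 at D6.

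In complex II, 2 of 4 members were higher in the embryonic gate on both days, and in complex III 1 of 9, or 11.1%. Among all genes 25.9% were higher at D4 and 31.5% at D6, and the complex II share rests on 4 genes. SDHA, the flavoprotein that oxidizes succinate, was higher in the embryonic gate with 46.7 against 34.4 CPM at D4 and 44.1 against 30.5 at D6 (log2 ratios 0.44 and 0.53), and so was the membrane anchor SDHD (0.33 and 0.42). SDHA has near-identical pseudogene copies, to which reads may have been lost. The iron-sulphur subunit SDHB had ratios of 0.16 and -0.088 and SDHC of -0.29 and -0.049. In complex III, UQCRFS1, the Rieske iron-sulphur protein, was higher in the embryonic gate (235 against 168 at D4, 224 against 169.8 at D6) and UQCR11 was lower at D6 (-0.37). UQCRH, the hinge protein and the most abundant of this complex, had 992 and 869 at D4 and 946 and 867 at D6, and its near-identical copy UQCRHL, 24.9 and 28.8 in the hypoblast gate, may have received some of its reads.

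Outside the assembly factors, the nuclear member furthest apart between the gates on both days belonged to the ATP synthase. Its membrane rotor is a ring of c subunits, and the same mature c subunit is encoded by ATP5MC1, ATP5MC2 and ATP5MC3. ATP5MC1 stood at 331 [326, 336] CPM in the embryonic and 162 [158, 166] in the hypoblast gate at D4, and at 329 [325, 333] and 184 [179.9, 188] at D6. Its log2 ratio between gates was 1.03 [0.99, 1.07] at D4 and 0.84 [0.80, 0.88] at D6. ATP5MC2 was higher in the embryonic gate as well (0.45 and 0.80), with 721 against 413 at D6. ATP5MC3 had 852 and 746 at D4 and 745 and 858 at D6, so its ratio went from 0.19 to -0.20. Of all c subunit UMIs, ATP5MC1 made up 18.3% in the embryonic and 11.9% in the hypoblast gate at D4, and 18.3% and 12.6% at D6, and ATP5MC3 47.1% and 54.7%, and 41.5% and 58.9%.

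ATP5F1E went the other way, with 357 [353, 362] against 663 [655, 669.9] CPM at D4 and 463 [458, 468] against 665 [657, 672] at D6. The log2 ratio between gates was -0.89 at D4 and -0.52 at D6, with a higher embryonic level at D6 than at D4 and nearly the same hypoblast level on both days. ATP5MD, a small accessory subunit, was higher in the hypoblast gate at D6 (-0.53) and lay just inside the fold at D4 (-0.32). The inhibitor ATP5IF1, which blocks ATP hydrolysis by the synthase, stood at 504 and 443 at D4 and 522 and 484 at D6.

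Complex IV had few nuclear members past the fold. At D4, 1 of 12 measured nuclear members, COX8A, was higher in the embryonic gate (0.40), and at D6 0 were higher and 2 were lower, COX6C (-0.35) and COX7A2 (-0.34). The 8.33% higher at D4 and the 16.7% lower at D6 lay below the shares of all genes, 25.9% and 30.2%. The abundant forms were COX4I1 (916 and 963 CPM at D4), COX7C (1004 and 1118) and NDUFA4 (911 and 1034), a subunit first assigned to complex I. The 19 nuclear members of complex IV summed to 6045 and 6445 at D4 and 6002 and 6416 at D6, beside 23728 and 23024 and 15316 and 13819.5 for its 3 MT- genes.

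Tissue-restricted paralogues of complex IV subunits were near the limit of detection but were not spread evenly. COX4I2, the alternative to COX4I1 known from lung and oxygen-sensing cells, had 59 UMIs in 1.48% of embryonic cells [1.12, 1.92] and 9 UMIs in 0.222% of hypoblast cells [0.101, 0.420] at D4. At D6 it had 112 UMIs in 2.16% [1.77, 2.60] and 1 UMI in 0.0280% [0.000710, 0.156]. COX4I2 UMIs were thus mostly in the embryonic gate, though they made up at most 0.187% of the summed COX4I1 and COX4I2 UMIs. COX6B2, the testis form, was found in 4.17% and 0.862% of cells at D4 and in 7.60% and 0.869% at D6. COX7A1, the heart and muscle form, had the reverse placement, with 0.0538% and 0.911% at D4 and 0.158% and 0.925% at D6. The embryonic cells were the deeper ones, and with each cell thinned to the same depth the shares of COX6B2 were 0.780% and 0.271% at D4 and 1.68% and 0.308% at D6, a narrower gap. For COX4I2 the thinned shares were 0.269% and 0.0985% at D4 and 0.514% and 0.0280% at D6, and for COX7A1 0.0269% and 0.394%, then 0.0594% and 0.196%, where the lowest rest on 1 to 4 cells.

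NDUFA4L2, a paralogue of NDUFA4 known as a target of hypoxia-inducible factor, was higher at D6 in both gates. Its level went from 1.28 [1.01, 1.61] to 4.89 [4.40, 5.42] CPM in the embryonic and from 0.753 [0.527, 1.04] to 2.85 [2.36, 3.41] in the hypoblast gate, log2 ratios of 1.93 [1.57, 2.31] and 1.92 [1.37, 2.50]. The share of cells with a UMI went from 1.70% to 5.03% and from 0.689% to 2.47%. It stayed below the minimum of 10 CPM and outside the counts above. When each cell was thinned to the smallest depth kept the shares at D6 were 1.35% and 1.01%, after 0.457% and 0.197% at D4. COX6A2, the muscle form of COX6A, had 1 UMI in all 4 groups together, and 0 UMIs of COX7B2 were seen, which, at 3 counts, allows a share of cells with a UMI of up to 0.0807% in the embryonic gate at D4.

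**Figure D5:**
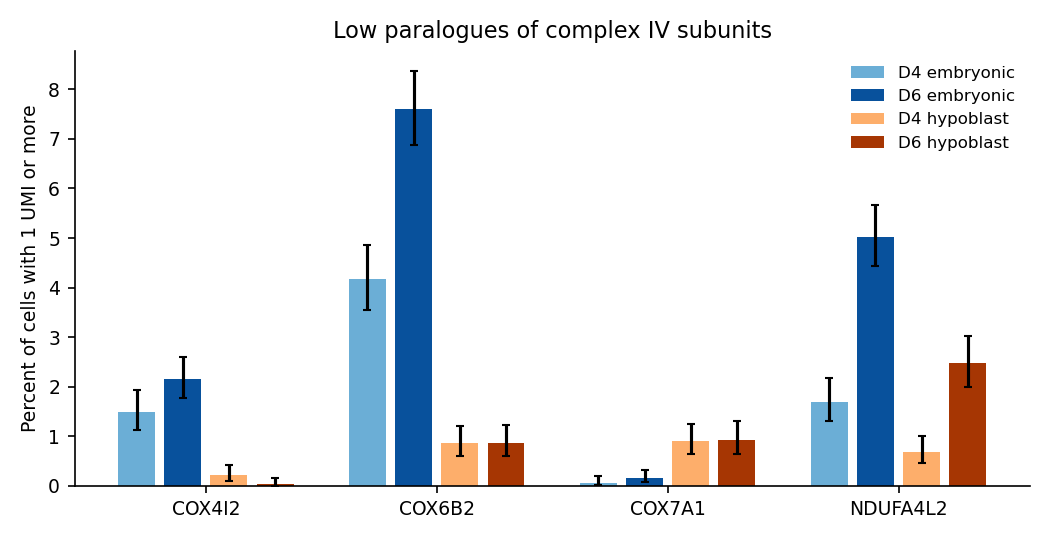
Percent of cells with 1 or more UMIs of COX4I2, COX6B2, COX7A1 and NDUFA4L2 in each gate and day, with exact binomial 95% intervals as error bars. COX4I2 and COX6B2 bars are higher in the embryonic gate, COX7A1 bars in the hypoblast gate (0.911% and 0.925%), and NDUFA4L2 bars are higher at D6 than at D4 in both gates.

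Promoter sequences were searched for motifs more frequent among the nuclear members than among all genes. RefSeq windows of 300 bases on GRCh38.p14, from 250 bases before to 50 after a start, were given for 79 of the 96 nuclear members. A gene counted as holding a motif if any of its windows held it. NRF1, a regulator of respiratory genes, binds a near-palindrome searched as GCGCANGCG on both strands. Of the members with a window 31.6% held it, against 9.02% of all 27305 genes, which were not limited to genes measured in these cells. The NRF1 share ranged from 12.5% in complex IV to 66.7% in complex II, where 3 members had a window. The YY1 motif, AANATGGCG, was in 22.8% against 3.85%, and the ETS motif, ACCGGAAG, in 7.59% against 2.62%. ERR (TCAAGGTCA) was found at 1 member, SDHD, and the short hypoxia motif ACGTG in 22.8% against 24.9%. A match is a description of letters and was not tested as a site.

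Of the 14 members higher in the embryonic gate on both days, 13 had a window, and 5 of these held the NRF1 and 3 the YY1 motif. Of the 5 higher in the hypoblast gate, 4 had a window, and 1 held the NRF1 motif and 0 the YY1 motif. Stretches of 30 bases around matches in both sets are printed to show the shared letters, which are in capitals.
SDHA, embryonic, NRF1, chr5:218291-218320: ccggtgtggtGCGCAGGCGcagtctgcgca
NDUFA5, embryonic, NRF1, chr7:123557957-123557986: tatgcccatcGCGCATGCGtcaatttttct
SDHD, embryonic, NRF1, chr11:112086753-112086782: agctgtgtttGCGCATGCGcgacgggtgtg
ATP5MC2, embryonic, NRF1 on the other strand, chr12:53676105-53676134: gcccgggtcaCGCATGCGCtgagccttcct
UQCRFS1, embryonic, NRF1 on the other strand, chr19:29213162-29213191: cgcctcctcgCGCCTGCGCcgtggttggaa
NDUFA3, hypoblast, NRF1, chr19:54102772-54102801: gtgctccaggGCGCACGCGcagccctggga
UQCRFS1, embryonic, YY1 on the other strand, chr19:29213103-29213132: gagcggctgtCGCCATGTTgtcggtagcat
NDUFAF8, embryonic, YY1, chr17:81239317-81239346: ggacggacctAAGATGGCGgcctccagggg
All stretches read 5′ to 3′ on the strand of the gene, and NDUFA5, ATP5MC2 and UQCRFS1 lie on the minus strand. SDHA held 4 NRF1 matches, each 49 bases from the next. NRF1 letters were found on both sides of the gate difference.

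The nuclear members with the 2 highest and the 2 lowest log2 ratios between gates at D4 held none of the NRF1, YY1, ERR or ETS letters in the 150 bases before their starts. Many other members held none of them either. Over full windows NRF1 letters were found for 31.6% of members, YY1 for 22.8%, ETS for 7.59% and ERR for 1.27%. Their absence thus does not set these members apart. At D6 other members were further apart than ATP5F1E, among them NDUFC2 and ATP5MC2, and the latter held the NRF1 match printed above. The stretches are shown with the CCAAT box and its reverse complement, looked for after the sequences were seen, in capitals.
NDUFAF2, embryonic, plus strand, chr5:60945055-60945204: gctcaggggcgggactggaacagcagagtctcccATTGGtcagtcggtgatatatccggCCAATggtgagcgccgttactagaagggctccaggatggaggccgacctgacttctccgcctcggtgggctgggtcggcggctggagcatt
ATP5MC1, embryonic, plus strand, chr17:48892637-48892786: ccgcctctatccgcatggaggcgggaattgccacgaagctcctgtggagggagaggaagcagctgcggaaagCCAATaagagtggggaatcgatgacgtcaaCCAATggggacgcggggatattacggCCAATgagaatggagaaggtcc
NDUFB3, hypoblast, plus strand, chr2:201071851-201072000: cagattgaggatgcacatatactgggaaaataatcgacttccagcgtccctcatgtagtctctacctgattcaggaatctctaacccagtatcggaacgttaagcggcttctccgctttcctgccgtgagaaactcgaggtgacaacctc
ATP5F1E, hypoblast, minus strand, chr20:59032336-59032485: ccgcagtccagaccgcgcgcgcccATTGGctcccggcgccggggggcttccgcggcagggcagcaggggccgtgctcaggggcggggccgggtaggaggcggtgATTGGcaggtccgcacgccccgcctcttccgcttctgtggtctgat
ATP5MC1 held 3 CCAAT boxes, NDUFAF2 and ATP5F1E 2 each and NDUFB3 0. A CCAAT box or its complement was found for 38.0% of members with a window and 39.7% of all genes, so it does not set the members apart.

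Other genes of the mitochondrion that are no members were taken from lists for background. The list for mitochondrial gene expression, which covers replication, transcription and RNA handling of the mitochondrial genome, had 13 of 21 measured genes higher and 0 lower in the embryonic gate at D4, and 12 of 20 and 0 at D6, with median log2 ratios of 0.42 and 0.50. Over all genes 25.9% were higher and 28.4% lower at D4, and 31.5% and 30.2% at D6. LRPPRC and SLIRP, which bind and stabilize MT- messenger RNA as a pair, had log2 ratios of 0.62 and 0.93 and 0.91 and 0.61, and the transcription factor TFAM 0.47 and 0.25. Between days 0 of 21 of these genes passed the fold in the embryonic gate and 1 of 20 was higher in the hypoblast gate, PNPT1, a polyribonucleotide phosphorylase (0.35), named after its value was seen. That was 5% of the list, beside 12.6% of all genes higher in that gate. In the embryonic gate 6.85% of all genes were higher and 4.04% lower.

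Mitochondrial ribosomal proteins were higher in the embryonic gate for 34 of 77 genes at D4 and lower for 3, and for 29 and 5 at D6. These were 44.2% and 3.90% at D4, beside 25.9% and 28.4% of all genes. At D6 they were 37.7% and 6.49%, beside 31.5% and 30.2%. Between days 0 of 77 passed the fold in the embryonic gate and 3 were higher in the hypoblast gate, 3.90% beside 12.6% of all genes. The electron carrier cytochrome c, CYCS, stood at 434 against 250.2 CPM at D4 and 419 against 280.3 at D6, and the ATP/ADP carrier SLC25A5 at 627 against 377 and 596 against 362. Of 17 measured electron carrier and coenzyme Q genes, 6 were higher and 4 lower in the embryonic gate at D4 (35.3% and 23.5%). At D6 8 were higher and 4 lower (47.1% and 23.5%). Of 8 membrane carrier genes, 4 were higher and 1 lower at D4 (50% and 12.5%), and 2 and 1 at D6 (25% and 12.5%). Of 18 genes of the tricarboxylic acid cycle and pyruvate dehydrogenase, 2 were higher and 4 lower in the embryonic gate on each day, with the pyruvate dehydrogenase subunit PDHB at -0.76 and -1.28. The shares of this list, 11.1% higher and 22.2% lower, were below those of all genes in both directions on both days.

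Genes that respond to low oxygen differed between days and between gates. Of 15 measured genes of the hypoxia list, 7 were higher and 0 lower at D6 in the embryonic gate and 10 higher and 1 lower in the hypoblast gate, with median log2 ratios of 0.26 and 0.43, against 6.85% of all genes higher in the embryonic and 12.6% in the hypoblast gate. Between gates 1 was higher and 7 were lower in the embryonic gate at D4, and 5 and 8 at D6, beside 25.9% and 28.4% and 31.5% and 30.2% of all genes. VEGFA, an angiogenic factor, had 94.4 CPM at D4 and 145 at D6 in the hypoblast gate, and the mitophagy receptor BNIP3 665 and 894. PDK1, which inhibits pyruvate dehydrogenase, went from 66.7 to 39.7 in that gate. The part of oxygen supply in the MT- values was not tested.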

How the data were processed

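Single-cell RNA was measured in 1 droplet library per day. The deposited matrices hold UMI counts per gene and cell, which the authors made with Cell Ranger 6.0.1 (file header) on hg38, with R 4.0.3 and Seurat 4.0.1 named in the submitters' processing notes. The 7 bisulphite libraries of the series were not analysed here. Cells with 3430 to 27500 UMIs and an MT- share of at most 10% were kept, as in the study's methods, and gated by POU5F1, SOX2 and FN1 UMIs. Counts were summed per gate and day and scaled to 1000000 UMIs (CPM). Levels carry exact Poisson intervals, log2 ratios exact conditional binomial intervals and shares exact Clopper-Pearson intervals. With 1 library per day no test was made. A gene was measured where its mean over the 2 groups compared was 10 CPM or more, and past the fold at 1.25-fold.

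Members, gates and lists were chosen with earlier results of these data known. The genes named were all MT- genes, the most abundant nuclear member of each group, the 2 highest and 2 lowest log2 ratios between gates per group and day, listed paralogues, ATP5IF1 and members past 1.5-fold. From the other lists the 2 highest and lowest ratios and the most abundant gene could be named, and other genes named were chosen after their values were seen, among them NDUFB2, NDUFA3, NDUFAF3, LRPPRC, SLIRP, TFAM, TDGF1, BNIP3 and the genes that define the subsets of cells. Scrublet (scanpy 1.11.5) called 2.92% of kept D4 and 4.01% of D6 cells doublets, and these stayed in. Alternatives were 10000 to 14000 UMIs per cell, no MT- filter, another denominator, gates per 10000 UMIs, no doublets, no filter on low genes and 1.5-fold. Shares of cells were also computed after thinning each cell to 3430 UMIs. Sums and ratios were computed with Python 3.11.15, numpy 2.4.6 and scipy 1.17.1 and tested on simulated data.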

Additional observations from a re-analysis of the deposited data

How the results depend on the processing

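The fall of the MT- sum from D4 to D6 kept its direction under every alternative run. In cells of 10000 to 14000 UMIs its log2 change was -0.78 in the embryonic and -0.71 in the hypoblast gate, without the MT- filter -0.62 in the embryonic gate, with MT-, RPL and RPS genes left out of the denominator -0.61 and -0.78, and with gates per 10000 UMIs -0.61 and -0.72. The nuclear sum between days was -0.0082 and -0.059 with that denominator. Between gates the sums lay near 0 and their direction depended on the setting. In cells of 10000 to 14000 UMIs the log2 ratio of the MT- sum was -0.0089 at D4 and -0.081 at D6 (0.025 and 0.12 over all cells), and that of the nuclear sum 0.023 and -0.0037. With the other denominator these were 0.093 and 0.27 for the MT- sum and 0.051 and 0.10 for the nuclear sum. At D6 the MT- sum was 0.11 without the MT- filter, and with gates per 10000 UMIs the MT- sum was 0.14 and the nuclear sum -0.049. The cause of these shifts was not tested.

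At 1.5-fold, 6 members were higher and 2 lower in the embryonic gate at D4, 7 and 2 at D6, and between days 0 were higher and 5 lower in the embryonic and 0 and 4 in the hypoblast gate. Among all genes 13.8% were higher and 18.1% lower between gates at D4 at that fold and 19.3% and 21% at D6, and between days 1.58% and 0.924% in the embryonic and 5.63% and 3.44% in the hypoblast gate. With the other denominator 33 and 6 were higher and lower between gates at D6. With no filter on low genes 6 were higher at D6 than at D4 in the embryonic and 3 in the hypoblast gate, since genes of few UMIs were added, and in cells of 10000 to 14000 UMIs 2 were higher in the hypoblast gate. The other 63 of the 96 alternative values stayed within their counting interval or within 1.5 times the count. No paired analysis was possible because each day is 1 library. The depth limits the low paralogues, where a count of 0 allows up to 3 UMIs.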

Other observations

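The nuclear share of a cell was lower in cells with UMIs of proliferation genes. Embryonic cells with no UMI of MKI67, TOP2A or CDK1 had a nuclear share of 2.62% at D4 (135 cells) and 2.69% at D6 (214 cells), and those with 5 or more had 2.49% (2142 cells) and 2.44% (2819 cells). In the hypoblast gate the values were 2.69% and 2.48% at D4 and 2.67% and 2.45% at D6. Cells without these UMIs were shallower. Within 10000 to 14000 UMIs the shares were 2.64% and 2.56% at D4 and 2.69% and 2.50% at D6 in the embryonic gate, and 2.61% and 2.54%, then 2.66% and 2.48%, in the hypoblast gate. At that depth the D4 MT- share was 4.04% without and 3.90% with these UMIs in the embryonic gate. In the hypoblast gate it was 3.99% and 3.76%. At D6 the MT- share was 1.79% and 2.36% in the embryonic and 2.35% and 2.25% in the hypoblast gate. It was thus higher with these UMIs only in the embryonic gate at D6. The groups were chosen after values were seen, and the difference was not tested.

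The list of mitochondrial stress and chaperone genes had 4 of 7 measured genes higher and 0 lower in the embryonic gate at D4. At D6 it had 5 of 10 higher and 2 lower, with a median log2 ratio of 0.22. The shares over all genes were 25.9% and 28.4% at D4 and 31.5% and 30.2% at D6. HSPD1, the matrix chaperonin, stood at 1619 CPM in the embryonic and 860.3 in the hypoblast gate at D4, and its partner HSPE1 at 1142 and 649, log2 ratios of 0.91 and 0.82. GDF15, a secreted factor induced by mitochondrial and other stress, had 10.0 CPM in the hypoblast gate at D4 and 89.6 at D6, and 1.92 and 2.27 in the embryonic gate. Of 21 measured genes of the glycolysis and lactate list, 11 were higher and 4 lower in the embryonic gate at D4, and 12 and 4 at D6. These were 52.4% and 19.0% at D4 and 57.1% and 19.0% at D6, beside the shares of all genes given above. Hexokinase 1, HK1, the highest of this list, had log2 ratios between gates of 2.50 and 2.88 in favour of the embryonic gate. The glucose transporter SLC2A3, the lowest, had -2.64 and -2.87. PPRC1, a coactivator of respiratory genes, had 1.55 and 1.56.

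Cells in neither gate (1374 at D4 and 1476 at D6) had MT- shares of 3.89% and 2.48% and nuclear shares of 2.62% and 2.57%, close to those of the gates on each day. Of these cells, 15.9% at D4 and 21.4% at D6 were called doublets. In the embryonic gate 0.915% and 1.44% were, and in the hypoblast gate 0.345% and 0.449%. A set of 68 D6 cells with 5 or more UMIs of HAND1, a mesoderm-associated transcription factor, had an MT- share of 3.54% and a nuclear share of 2.34%.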
